A study of Drosophila melanogaster with 3 samples.

Results

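The genes for translation initiation factors (eIF) and elongation factors (eEF) of *Drosophila melanogaster* were examined for binding of Methoprene-tolerant (Met). They were defined by name, as the protein-coding genes of the Ensembl annotation whose symbols start with eIF or eEF. There are 52 of them among 13945 protein-coding genes on the 6 major chromosome arms. This group was chosen with earlier results of these data known. Bound DNA had been pulled down and sequenced (ChIP-seq) from whole white prepupae, males and females mixed. All animals came from 1 transgenic line in which Met carries a C-terminal green fluorescent protein (GFP), and the antibody recognised GFP. There was 1 group of 3 biological replicates and no other genotype, treatment or stage, so no condition was compared with another, no cell type is resolved, and all shares below are descriptions without a test.

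Met is a bHLH-PAS transcription factor and an intracellular receptor of juvenile hormone, and white prepupae stand at the onset of metamorphosis. Initiation factors bring the small ribosomal subunit, the initiator tRNA and the capped mRNA together and find the start codon. Elongation factors then deliver aminoacyl-tRNAs and move the ribosome along the mRNA. Many of the genes for these proteins are used in nearly every growing cell. Many have housekeeping promoters with a DNA replication-related element (DRE) or with a TCT initiator, a pyrimidine-rich start also found at ribosomal protein genes.

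The files are peak lists without reads, so sequencing depth is unknown and values carry no counting interval. The main list was the authors' dm6 list of reproducible peaks (those under an irreproducible discovery rate, IDR) with 8513 peaks, which are the 8513 peaks of highest signal among the 30000 of the pooled replicates. A rank is a peak's place in its own list by the authors' signal, with 1 the strongest. A promoter summit is the highest point of a peak that lies no more than 1000 bp from a transcription start site (TSS) annotated for the gene, and positions are negative upstream. For equal length, each replicate list was ended at its 8513 strongest peaks.

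The DNA at the strongest of these promoter summits is shown first, because the peaks share no single word. Each line gives 101 bases centred on the summit, on the strand of the factor gene, from the RefSeq Release 6 (dm6) assembly. They belong to the strongest summits on arms X, 2L, 3L and 3R whose windows hold at most 30 bases of annotated exon. Capitals mark any of the 12 words searched, which are named further down.
eIF2Bbeta, chrX:2703840-2703940, plus strand: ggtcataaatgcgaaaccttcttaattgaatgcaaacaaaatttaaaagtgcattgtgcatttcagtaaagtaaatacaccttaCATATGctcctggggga
eIF4EHP, chr3R:24109145-24109245, minus strand: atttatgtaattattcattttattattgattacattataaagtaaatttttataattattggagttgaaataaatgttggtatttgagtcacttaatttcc
eEF1gamma, chr3R:29220081-29220181, plus strand: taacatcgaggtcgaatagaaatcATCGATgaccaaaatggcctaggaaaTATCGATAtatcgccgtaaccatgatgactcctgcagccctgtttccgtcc
eIF3h, chr2L:5052474-5052574, minus strand: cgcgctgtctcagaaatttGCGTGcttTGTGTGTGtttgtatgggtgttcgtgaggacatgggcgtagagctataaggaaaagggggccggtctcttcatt
eIF2beta, chr3L:12526978-12527078, minus strand: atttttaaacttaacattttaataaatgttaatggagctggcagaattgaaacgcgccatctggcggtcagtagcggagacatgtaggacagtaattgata
eIF1, chr3L:3223180-3223280, plus strand: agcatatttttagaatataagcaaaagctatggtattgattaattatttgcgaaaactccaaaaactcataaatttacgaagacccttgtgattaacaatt

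Of the 52 factor genes, 14 (26.9%) had an IDR promoter summit, against 22.2% of all protein-coding genes, a share near this background at this distance and in this list. Genes with several TSSs offer more places for a summit, and the factor genes stayed close to others of their kind. Of the 32 factor genes with 1 TSS, 5 (15.6%) had a promoter summit, against 15.4% of all such genes. Of the 20 with more TSSs, 9 (45.0%) had one, against 41.2%. The lists of replicates 1, 2 and 3 gave 16, 18 and 17 factor genes, or 32.7% ± 1.92 (SD, n = 3). They held 25.3%, 23.0% and 24.7% of all coding genes, or 24.4% ± 1.19. Each replicate list thus held more factor genes than the IDR list. In all 3 replicate lists 15 factor genes (28.8%) had a promoter summit, against 18.3% of all coding genes.

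**Figure D1:**
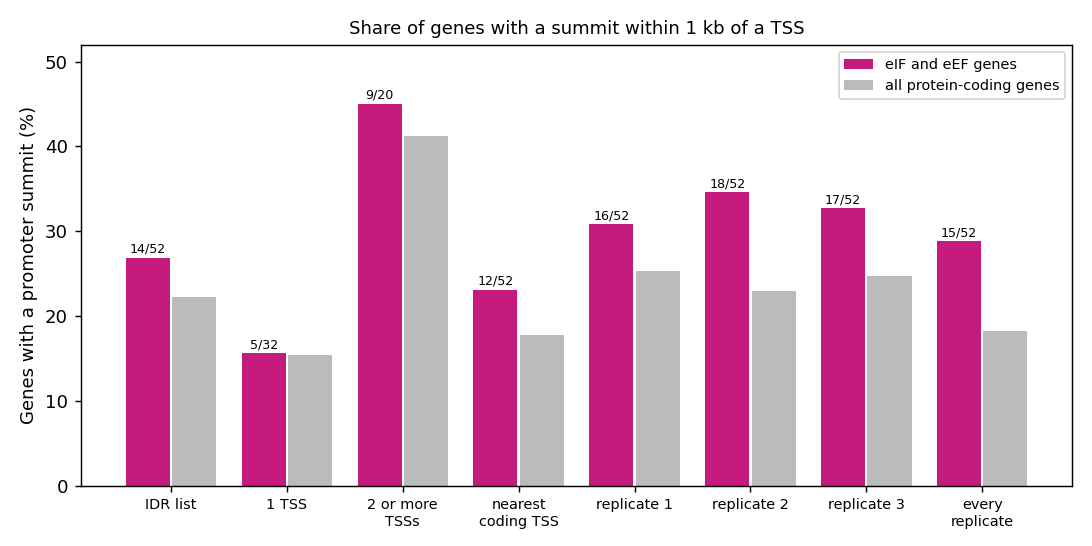
Percentage of genes that had a promoter summit, for the eIF and eEF genes (left bars, counts above them) and all protein-coding genes (right bars), in the IDR list, by number of TSSs, by nearest coding TSS, and in the replicate lists. The factor genes stand at 26.9% in the IDR list against 22.2%, and at 15.6% against 15.4% among genes with 1 TSS.

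The 14 genes held 16 promoter summits, of median rank 2684, against 3830 for the 3301 promoter summits of all coding genes. Of the 16, 4 (25%) ranked 1000 or better, against 15.8%. All 16 were overlapped by a peak in the relaxed list of every replicate, against 96.8% of all coding promoter summits. The IDR list was derived from these relaxed lists, so such overlap is in part built in. In every list of 8513 peaks 15 of the 16 (93.8%) were overlapped, against 75.3% of all coding promoter summits. The exception was the weaker of the pair of summits at eEF1alpha1. Across the 16 summits the largest replicate rank was at the median 1.60 times the smallest, against 1.56 times for coding promoter summits matched in every replicate.

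**Figure D2:**
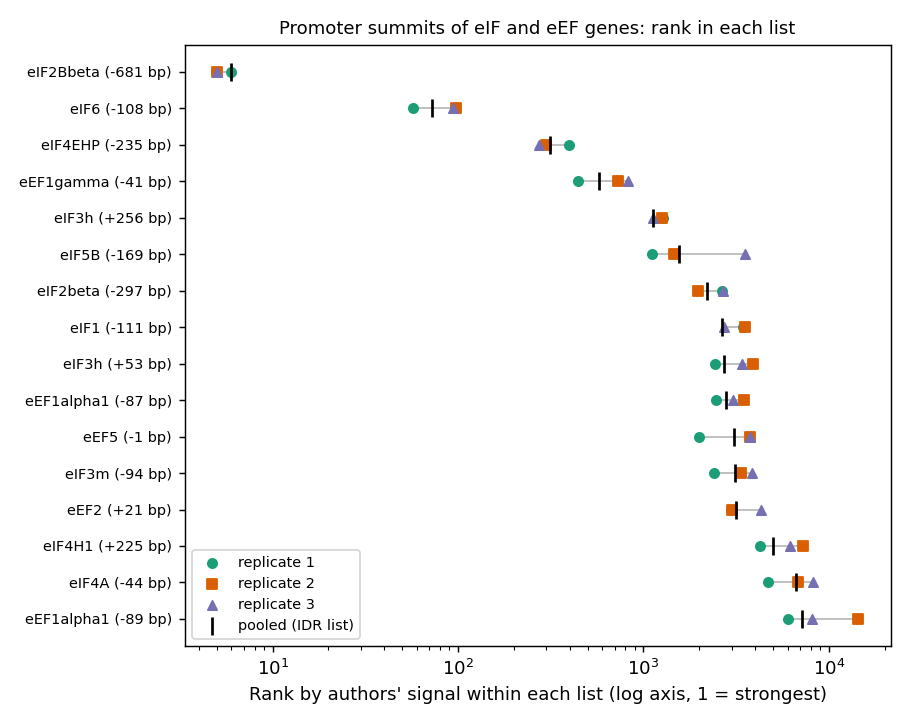
Rank of each of the 16 promoter summits of eIF and eEF genes in the 3 replicate lists (points) and in the pooled IDR list (black ticks), on a log axis with the strongest at the left, labelled with the position from the TSS. eIF2Bbeta stands at rank 5 or 6 in every list, and the widest spread by ratio is at eIF5B (3.17 times), with the upstream summit of eEF1alpha1 next (2.41 times).

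The strongest summit within reach of a factor gene lay between eIF2Bbeta and Ugalt, the gene of a UDP-galactose transporter, on X (2703664 to 2704120, authors' signal 4491). eIF2Bbeta codes for a regulatory subunit of eIF2B, the exchange factor that recharges eIF2 with GTP. The peak ranked 6, 5 and 5 in replicates 1, 2 and 3 and 6 in the IDR list, so the 3 libraries barely differed. Its summit lay 681 bp upstream of eIF2Bbeta but 38 bp upstream of Ugalt, which is transcribed the other way. Counted for the nearest coding TSS alone, it is a peak of Ugalt, and none of the 5 eIF2B genes keeps one. The word CATATG, an E-box that lacks the central CG, lay within 50 bp of the summit. The other subunit genes, eIF2Balpha, eIF2Bgamma, eIF2Bdelta and eIF2Bepsilon, had no summit within 1000 bp in any of the 5 dm6 lists.

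eIF6 had the strongest summit that was nearest, among coding genes, to the factor gene's own start. The eIF6 protein binds the large ribosomal subunit and keeps it from joining the small one too early. This peak on 2R (23850220 to 23850579, signal 1904) ranked 57, 97 and 94 in replicates 1, 2 and 3 and 72 in the IDR list. All 3 libraries placed it among their strongest 100 peaks. The summit lay 108 bp upstream of eIF6 and 79 bp from the start of asRNA:CR45928, a noncoding antisense gene whose exon it falls in. None of the 12 words lay within 50 bp of it.

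Among the factors that pick the start codon and join the subunits, eIF5B and eIF1 had summits too. eIF5B is the GTPase that joins the large subunit. Its promoter summit on 3L (3460614 to 3460884) lay 169 bp upstream of the nearest eIF5B TSS, ranked 1119, 1466 and 3551 in replicates 1, 2 and 3 and 1562 in the IDR list, and was clearly weaker in replicate 3. The gene, 3428658 to 3460977 on the minus strand, held 8 further IDR summits, all in its introns. These spanned 10374 to 28124 bp downstream of its 5′ end, with the strongest at rank 975 (3432681 to 3433007), above the promoter summit. It ranked 907, 984 and 1197 in the replicates. No other factor gene held as many: eIF4EHP came next with 3 summits in the gene and the 2 kb upstream, as did eEF1alpha1, against 9 for eIF5B. These counts were not adjusted for gene length and were not set against all coding genes.

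eIF1, a small protein that guards the accuracy of start-codon choice, shares its upstream DNA with RpL28, a ribosomal protein gene transcribed the other way. The IDR summit (3L, 3223229 to 3223338) lay 111 bp upstream of eIF1 and 270 bp upstream of RpL28. Its ranks were 3460, 3544 and 2707 in replicates 1, 2 and 3 and 2643 in the IDR list. Replicates 1 and 3 had a stronger neighbour there, with summits 309 and 314 bp upstream of eIF1 and ranks 765 and 865, which no pooled peak overlapped, although a peak of replicate 2 did. Only the weaker of the pair is therefore counted in the IDR list.

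eIF2 carries the initiator tRNA, and 1 of its 3 subunit genes had a promoter summit. This was eIF2beta, with a summit 297 bp upstream on 3L (12526934 to 12527123) that ranked 2644, 1972 and 2678 in replicates 1, 2 and 3. It had no other coding TSS within 1000 bp. eIF2alpha, the subunit that stress kinases phosphorylate, had its nearest IDR summit 1897 bp upstream, and that peak is the one assigned to eIF4H1. eIF2gamma had none within 1000 bp in any dm6 list.

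Of the 16 genes of the scaffold complex eIF3, 2 (12.5%) had a promoter summit, eIF3h and eIF3m, against 22.2% of all coding genes. eIF3h on 2L had a summit 256 bp downstream of its nearest TSS, in an intron, which ranked 1280, 1256 and 1129 in replicates 1, 2 and 3. The 3 libraries ranked it alike. A second summit, 53 bp downstream, ranked 2443, 3912 and 3418, and both lay within 1000 bp of senju on the other strand. The eIF3m summit on 2R, 94 bp upstream and 132 bp upstream of CG8323, ranked 2417, 3363 and 3877. eIF3a, eIF3b, eIF3c, eIF3d1, eIF3d2, eIF3e, eIF3f1, eIF3g1, eIF3i, eIF3j, eIF3k and eIF3l had no summit within 1000 bp in any dm6 list. eIF3f2 and eIF3g2 had weak ones, of rank 22843 in the pooled relaxed list and 23719 in that of replicate 3.

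Of the 7 genes of the cap-binding eIF4E family, 1 (14.3%) had a promoter summit, against 22.2% of all coding genes, and none had one by nearest coding TSS. The 1 gene was eIF4EHP, whose protein binds the cap without recruiting eIF4G and so blocks initiation. Its peak on 3R (24108930 to 24109407, signal 1074) ranked 398, 299 and 272 in replicates 1, 2 and 3 and 313 in the IDR list, well inside the strongest 1000 of every list. The summit lay 235 bp upstream of eIF4EHP and 141 bp upstream of CG18428 on the other strand, to which it is nearer. At 17.8% G+C it was the most A+T-rich of the 16. The general cap-binding factor eIF4E1 had a summit in the list of replicate 3 alone, of rank 7890 and 115 bp downstream. eIF4E4 had weak ones, of rank 17662 in the pooled list, and eIF4E3, eIF4E5, eIF4E6 and eIF4E7 had none in any dm6 list.

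Among the factors that unwind the 5′ end of the mRNA, eIF4A and eIF4H1 had promoter summits. eIF4A is the RNA helicase and eIF4H1 belongs to an RNA-binding family that assists it. The eIF4A summit lay 44 bp upstream of a TSS on 2L (5982330 to 5982769), and its ranks of 4720, 6820 and 8194 in replicates 1, 2 and 3 put it near the end of the list of replicate 3. eIF4H1 on X had a summit 225 bp downstream of its nearest TSS, in an intron, with ranks of 4280, 7228 and 6176. Both were weaker than the median coding promoter summit, and both fall out when the IDR list is ended at its stronger 4256 peaks. The scaffold gene eIF4G1, the only factor gene on chromosome 4, had peaks of rank 8670, 17351 and 17715 in the replicates and 12727 in the pooled list, below the IDR threshold. eIF4B had a summit only in the relaxed list of replicate 1 (rank 18742), and eIF4G2 and eIF4H2 had none.

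Of the 8 elongation factor genes, 4 had a promoter summit, against 22.2% of all coding genes. Of the 8, 5 have more than 1 TSS, a class in which 41.2% of all coding genes had one. eEF1gamma belongs to the complex that recharges eEF1alpha, the carrier of aminoacyl-tRNAs. It had the strongest of these summits (3R, 29219927 to 29220293, signal 777), 41 bp upstream of its nearest TSS, with ranks of 442, 729 and 829 in replicates 1, 2 and 3. Replicate 1 ranked it highest and no other coding TSS lay within 1000 bp. A complete DRE covers the summit, as the capitals above show.

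eEF1alpha1 on 2R had a summit 87 bp upstream of an internal TSS, in an intron (11891924 to 11892110), which ranked 2457, 3476 and 3029 in replicates 1, 2 and 3. Its upstream summit, 89 bp before the first TSS and 67 bp upstream of ERp60 on the other strand, was weaker. It ranked 5994, 14464 and 8100, so that replicate 2 placed it outside its strongest 8513. eEF2, which moves the ribosome by a codon, had a summit 21 bp downstream of a TSS on 2L with ranks of 2962, 2996 and 4334. eEF5, the fly member of the eIF5A family that helps ribosomes past difficult peptide bonds, had its summit 1 bp upstream of a TSS on 2R with ranks of 2008, 3746 and 3743. These were mid-list peaks in all 3 libraries. eEF1alpha2 and eEFSec, the factor for selenocysteine, had none in any dm6 list.

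Several factor genes had a peak in the replicates but not in the pooled list. eEF1beta, another subunit of the exchange complex, had a summit 164, 187 and 197 bp upstream in replicates 1, 2 and 3, with ranks of 8152, 6373 and 7619. All 3 lie among the strongest 8513 of their lists, yet no peak of the pooled list overlaps them. eIF2A had summits of rank 6087 and 7346 in replicates 1 and 2. eIF1A had summits of rank 4846 and 3583 in replicates 2 and 3, 878 and 889 bp downstream. Replicate 2 alone had another at eIF1A, of rank 7789 and 92 bp upstream. eIF5 had summits of rank 6500 and 7371 in replicate 2, 628 and 838 bp upstream. A weaker one, of rank 10971 in replicate 3, lay at another place, 298 bp downstream of a TSS. None of these had a pooled peak within 1000 bp of a TSS. eIF2D, which can deliver initiator tRNA without eIF2, had no summit there in any dm6 list.

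The count depends little on how far a summit may lie from the TSS. Within 250 bp there were 12 factor genes, against 14.3% of all coding genes, and within 500 bp 13, against 18.6%. Only eIF2Bbeta is lost at 500 bp, and eIF2beta joins it at 250 bp. Within 2000 bp there were 18 (34.6%), against 27.9%. With only the 5′ end of each gene as its TSS there were 14 (26.9%), against 20.2%. With each summit given to its nearest coding TSS there were 12 (23.1%), against 17.8%, and to the nearest TSS of any gene 11 (21.2%), against 17.4%. In the stronger 4256 peaks of the IDR list there were 12 (23.1%), against 14.4%. Within 250 bp and in the stronger peaks the factor genes thus stood further above the background than in the main count. None of these differences was tested.

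Just inside the limit of 1000 bp lay the summit assigned to eIF2Bbeta. Just outside it were eEF1delta (1191 bp upstream, nearest to ova), eIF3d1 (1289 bp upstream, rank 1026, nearest to GILT2) and eIF3d2 (1319 bp upstream). The relaxed pooled list added only eEF1delta, eIF3f2, eIF4E4 and eIF4G1, and 18 factor genes (34.6%) then had a promoter summit, against 37.9% of all coding genes. No dm6 list had a summit within 1000 bp of 26 factor genes (50%), against 46.1% of all coding genes.

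Most factor gene summits sat close to the TSS. Their median position was -88.0 bp, with quartiles at -126 and 4.50 bp, against -154 bp for all coding genes. In the replicate lists the median was -87 ± 7.81 bp (SD, n = 3). Of the 16, 12 (75%) lay upstream, against 75.3%, and 15 (93.8%) lay within 500 bp, against 74.1%. Another coding gene had its TSS within 1000 bp of 11 of the 16 summits (68.8%). Counted the same way, once for each gene that a summit reaches, the share was 43.4% over all coding genes, and counted once per summit it was 26.8%. In 10 of those 11 the nearest such gene lay on the other strand. As for location, 8 summits were intergenic, 5 in an exon and 3 in an intron.

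**Figure D3:**
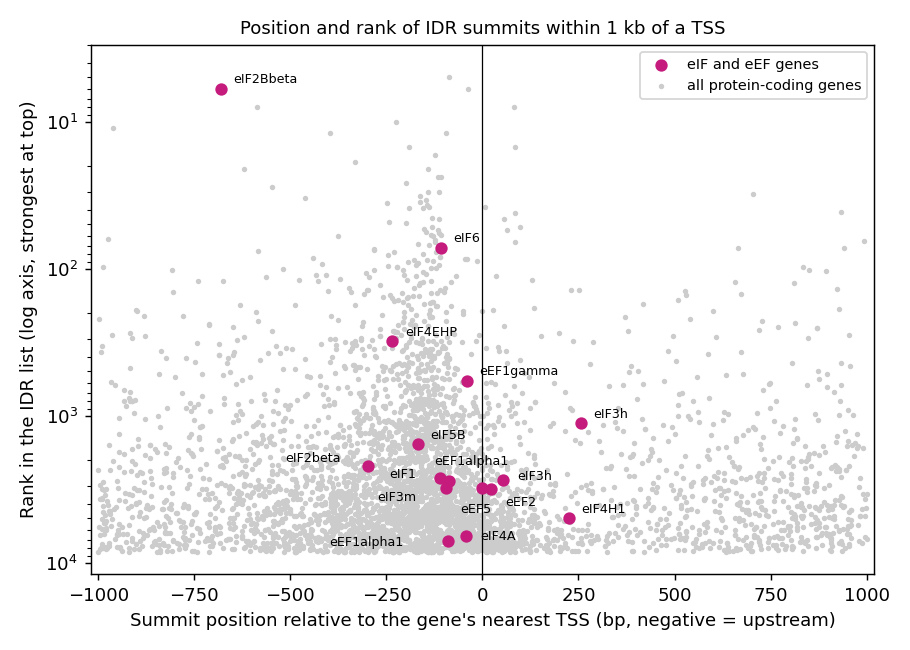
Position of each IDR summit from the gene's nearest TSS (bp, negative upstream) against its rank (log axis, strongest at the top), for eIF and eEF genes (large points) and all protein-coding genes (small points). Of the 16 factor gene summits, 15 lie within 500 bp, and the strongest, at eIF2Bbeta, lies at -681 bp.

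The 16 summits were richer in G+C than promoter summits at large, with a median of 46.5% over 101 bp (17.8% to 61.4%), against 33.7%. Summits near a TSS are richer in general, so distance moves with this value. Of those within 100 bp of a coding TSS, the 9 at factor genes had a median of 47.5% and the 800 at all coding genes 41.1%. Between 100 and 1000 bp the medians were 38.6% (7 summits) and 31.7%.

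Words of known or supposed factors were searched within 50 bp of each summit, on both strands. No factor gene summit had the E-box CACGTG, which 0.939% of all coding promoter summits had. The C-box, spelled CACGCG, lay at 1 summit, that of eIF4H1 (6.25%, against 2.24%). The bHLH-PAS core, spelled GCGTG and contained in the C-box, lay at 4, those of eIF3h, eIF5B, eIF4H1 and eIF4A (25%, against 9.42%). These 4 were also the most G+C-rich of the 16 summits, at 50.5%, 53.5%, 54.5% and 61.4%. The other E-box CATATG lay at 2, those of eIF2Bbeta and eEF1alpha1 (12.5%, against 3.45%), and CAGCTG at none (against 4.36%). The complete DRE, spelled TATCGATA, lay at eEF1gamma alone (6.25%, against 1.64%), and its core, which is ATCGAT and lies within it, also at eEF2 (12.5%, against 5.12%). The GAGA factor word GAGAG lay at 3 summits (18.8%, against 11.8%) and the repeat CACACACA at 1 of eIF3h (6.25%, against 1.85%). Core promoter motif 1, here GGTCACACT, the GATA word AGATAA and the Zelda word CAGGTAG lay at none, against 0.576%, 7.03% and 0.545% of all coding promoter summits. Within 100 bp of the summit the E-box lay at 1 (eEF2, 6.25%, against 2.27%), the C-box at 2 (12.5%, against 4.60%) and GCGTG at 7 (43.8%, against 19.3%). GAGAG still lay at 3 there (18.8%), now below the 25.4% of all coding promoter summits. A word is a match of letters and not a shown binding site, and 1 summit of 16 already makes 6.25%. The background summits were poorer in G+C (median 33.7%, against 46.5%), and no share of a word was adjusted for this.

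The DRE was counted in promoters too, whether or not a summit lay there, and these shares were not tested. In the 300 bp from 250 bp before to 50 bp after the 5′ end of each gene, 14 of the 52 (26.9%) had TATCGATA, against 9.36% of all coding genes. The core ATCGAT was in 24 (46.2%), against 23.3%. Of the 14 genes with a DRE, 4 had an IDR promoter summit (28.6%), namely eEF1gamma, eIF2Bbeta, eIF4A and eIF6, against 26.5% of all coding genes with a DRE. Of the 38 without, 10 had one (26.3%), against 21.8%. In these counts the word and the summit need not lie together. The DRE of eIF2Bbeta starts 28 bp downstream of the 5′ end, while its summit lies 681 bp upstream. That of eIF4A starts 52 bp upstream of the 5′ end, while its summit lies nearest to an internal TSS. GAGAG was in 8 factor promoters (15.4%, against 29.7%), or in 15 (28.8%, against 36.3%) when the promoters of all annotated TSSs were searched, and CAGCTG in 4 (7.69%, against 17.7%). The bHLH-PAS core GCGTG was in 14 (26.9%, against 26.3%), or in 21 (40.4%, against 33.1%) with all annotated TSSs. Some of these DREs are shown because they lie in promoters without an IDR summit, with the word in capitals, on the strand of the gene.
eEF1delta, chr2L:10232467-10232496, plus strand: gatggcgtagaTATCGATAtacctgcattc
eIF3a, chr3R:4433915-4433944, minus strand: tcggcctgaacTATCGATAacgcagccagg
eIF4B, chr3L:27858272-27858301, minus strand: cccgaaataaaTATCGATAacgatatagga
These lay 29, 38 and 19 bp upstream of the 5′ ends of eEF1delta, eIF3a and eIF4B, counted to the first base of the word.

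**Figure D4:**
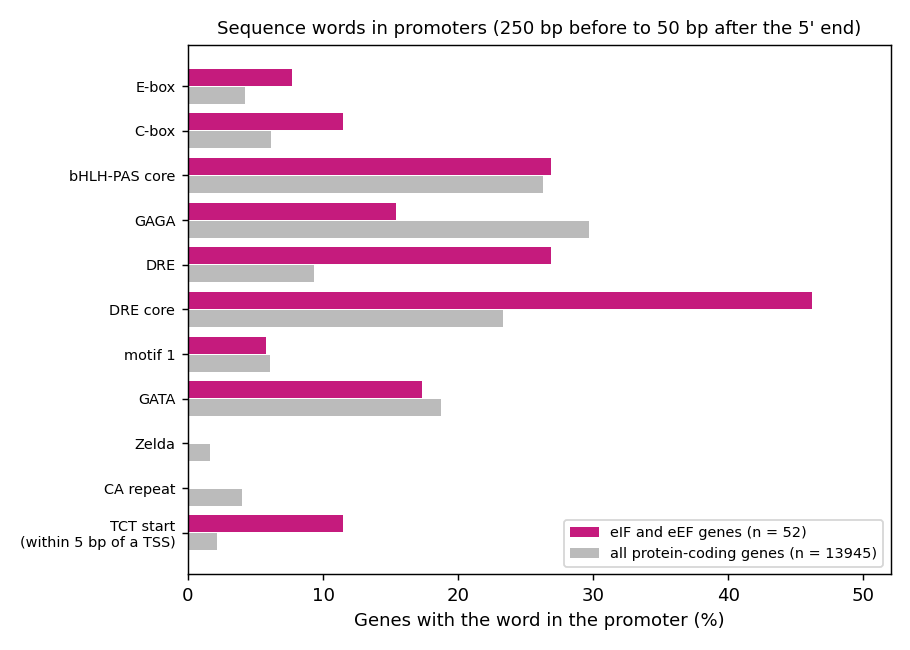
Share of promoters that hold each word (%), for the 52 eIF and eEF genes (upper bars) and all 13945 protein-coding genes (lower bars); the TCT start is counted within 5 bp of any annotated TSS. The DRE stands at 26.9% against 9.36%, and the TCT start at 11.5% against 2.13%.

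A TCT start was counted where C or T, then CTTT, then C or T had its second base within 5 bp of a TSS, on the strand of the gene. It was found at 6 factor genes (11.5%), against 2.13% of all coding genes and 59.1% of 93 cytoplasmic ribosomal protein genes (symbols in RpL or RpS, and sta). The count is a property of the annotation and depends on the exactness of its TSSs. Of these 6 genes, 4 had an IDR promoter summit (66.7%), namely eEF2, eEF5, eIF3m and eIF4A, against 42.8% of all genes with such a start. Those 4 have 2 or 3 annotated TSSs each, while eIF3f1 and eIF3i have 1. Of all coding genes with 2 or more TSSs, 41.2% had a promoter summit, so the TCT start and the number of TSSs cannot be told apart here. Of the 46 factor genes without a TCT start, 10 had a promoter summit (21.7%), against 21.8% of all such genes. This split was examined after the summits were known. Of the ribosomal protein genes 66.7% had a promoter summit. The starts of the 4 genes on 2L and 3R follow, 10 bases before to 14 after the TSS, with the word in capitals.
eEF2, chr2L:21682102-21682126, minus strand: tgcagcgcctcgcTCTTTCctgtcg
eIF4A, chr2L:5981754-5981778, plus strand: gcaagatggagccTCTTTTgcttgg
eIF3i, chr2L:4967761-4967785, minus strand: cacggtcacactgcTCTTTTggcgt
eIF3f1, chr3R:4714168-4714192, minus strand: actatcgataggcCCTTTTcttgca
eEF2 and eIF4A had an IDR promoter summit, while eIF3i and eIF3f1 had none in any dm6 list. Neither summit lies nearest to the start shown: that of eIF4A is nearest to an internal TSS, and that of eEF2 to the 5′ end of the gene.

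Genes that act on these factors were listed as well. Of 14 partners at the cap and the start site, 8 had an IDR promoter summit (57.1%), against 22.2% of all coding genes. Only 3 of the 14 had one within 500 bp, against 18.6% of all coding genes. The number of TSSs was not taken into account for these lists. The strongest were at Lk6, the kinase of eIF4E, with ranks of 10, 11 and 12 in replicates 1, 2 and 3 and a summit 961 bp upstream, and at larp, an RNA-binding protein gene with 5 promoter summits, the best of rank 19. Next came pAbp, poly(A)-binding protein (rank 710, 512 bp downstream), and Paip2, its inhibitor (rank 1957, 805 bp downstream). Thor, the fly 4E-BP that holds eIF4E inactive, had a weak summit 28 bp upstream of its TSS whose ranks of 8576, 18432 and 4066 differed widely between replicates.

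In the TOR pathway, which sets translation by nutrients, 5 of 12 genes had a promoter summit (41.7%), the strongest at REPTOR, a transcription factor downstream of TOR (rank 91, 167 bp upstream). Of 4 genes for eIF2 kinases and their response, only crc, the fly ATF4, had one (rank 1515). Both release factor genes had one, eRF1 of rank 2954 and eRF3 of rank 5994. Cytoplasmic aminoacyl-tRNA synthetases had 4 of 20 (20%), with the strongest, at AspRS (rank 1320), nearer to Nmda1. Of 9 mitochondrial translation factors 1 had a summit, mIF2. These shares stand beside 22.2% of all coding genes, and the lists have few members each.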

How the data were processed

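Per the labels, sonication was used to shear the chromatin (fragments of 200 to 800 bp). Per the deposited text listings, relaxed peaks were called against a control in single replicates and in their pool, and the IDR list was derived from these 4 lists. No label or listing used here names an aligner or peak caller. The deposited signal value of each peak is the authors' own and its scale differs between lists, so it was used only to rank peaks within a list. The 5 dm6 lists were used, and the dm3 lists were not used here. The labels' biological replicate numbers name the replicates, which have separate biosample records. Genes and TSSs came from Ensembl release 115 and sequence from RefSeq Release 6, both in dm6 coordinates (1-based). Pseudogenes and transposable elements were left out. Peaks were matched between lists by an overlap of at least 1 bp, taking the nearest summit. Assignment and word search were tested on simulated data with planted summits and words. Python 3.11.15 and numpy 2.4.6 were used. The factor genes, gene lists, words and the rule for named genes (every eIF and eEF gene, and partner genes of rank 2000 or better) were chosen with earlier results of these data known; partner genes named beyond that rank were named after their values were seen. The Drosophila symbols Dhx36, Nck and mEFG2 of the lists did not match the annotation, and Tor was matched as mTor. No test was run, since there was 1 group.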

Additional observations from a re-analysis of the deposited data

How the results depend on the processing

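No paired analysis was possible because there was 1 group. The number of factor genes with a promoter summit stayed within 1.5 times the 14 of the IDR list under the alternatives listed next. It was 12 within 250 bp, 13 within 500 bp, 18 within 2000 bp and 12 in the stronger 4256 peaks. It was 18 in the relaxed pooled list and 14 with the gene's 5′ end as the only TSS. It was 12 with the nearest coding TSS only, and 16 to 18 in the equal-length lists of single replicates. The whole relaxed lists of replicates 1, 2 and 3 lost none of the 14 genes and gained 5, 7 and 9. Their mean was 21.0 genes, and the whole list of replicate 3 went beyond 1.5 times. Leaving out a replicate gave, in the equal-length lists, a mean of 16.5 to 17.5 genes and a median position of -91.5 to -84.5 bp. Single genes lost under an alternative have no value there: eIF2Bbeta and eIF2beta at the shorter distances, eIF4A and eIF4H1 in the stronger peaks, eIF2Bbeta and eIF4EHP by nearest coding TSS. The median position was -21.0 bp, against -88.0 bp, when only the 5′ end of each gene counted, since the summits of eIF3h, eIF4A, eIF5B and 1 of eEF1alpha1 lie nearest to internal TSSs, and was -78.0 bp in the list of replicate 3. The TCT start depends on its tolerance: 0 factor genes with the exact place, 6 within 5 bp and 19 within 20 bp (7.62% of all coding genes). Searching 100 bp to each side of a summit gave 1 in place of 0 E-boxes, 2 in place of 1 C-box and 7 in place of 4 GCGTG. Searching the promoters of all TSSs, chosen after seeing the data, gave 15 in place of 8 genes with GAGAG, 2 in place of 0 with the Zelda word and 4 in place of 0 with the CA repeat. Depth is unknown, so a gene without a peak is not shown to lack binding.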

Other observations

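At eEF1beta all 3 replicates had a peak among their strongest 8513, and the pooled list had none. The next counts take all peaks of these lists on the 6 major arms, at promoters or elsewhere. No pooled peak overlapped 436, 295 and 418 peaks of the lists of replicates 1, 2 and 3 (5.12%, 3.47% and 4.91%). Of these, 69, 72 and 71 were overlapped in every replicate list. Among the factor genes, eIF1, eIF1A, eIF2A, eIF4E1 and eIF5 had such peaks in 1 or 2 replicates. The cause was not tested.

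The introns of eIF5B held summits in a stretch that reaches toward the neighbouring gene sty. The 6 nearer to sty had it as the gene of the nearest TSS, at 7918 to 17354 bp, and the 2 others were nearest to eIF5B. The 8 intron summits ranked 975 to 7862 in the IDR list, and 1 of them, the weakest, had CATATG within 50 bp.

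The numbered second copies eEF1alpha2, eIF3d2, eIF3f2, eIF3g2, eIF4G2 and eIF4H2 had IDR promoter summits at 0 of 6 genes. Of the first copies 2 of 6 had one, eEF1alpha1 and eIF4H1, while eIF3d1, eIF3f1, eIF3g1 and eIF4G1 had none. The share over all coding genes was 22.2%. This grouping was made after the values were seen, and the difference was not tested.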
